A study of Mus musculus with 56 samples.

Results

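The first 4 h without food were examined in the heart of night-fed mice. Under nighttime-restricted feeding (NRF), food was present in the dark phase alone, so that zeitgeber time (ZT, hours after lights on) 0 was the end of feeding and the start of light. The 4 libraries of NRF ZT4, 4 h later in the light and without food, were compared with the 4 libraries of NRF ZT0. These 8 libraries were chosen by regimen and ZT from the labels of a series of 56, and 22863 genes with recovered reads were considered, of which 13886 passed the filter on low values. All 8 were made from heart polyA RNA. The mice were C57BL/6J females, adults of 9 weeks from an inbred strain, taken after 7 days of restricted feeding under 12 h of light and 12 h of dark, with chow and water freely available before the regimen. The series also holds daytime-restricted feeding (DRF), in which food was present in the light phase alone, with 7 ZT and 4 replicates in each of the 14 groups. No wholly unfed or freely fed hearts were analysed here, so food withdrawal, light and clock hour cannot be told apart within NRF. The labels do not say that replicates were separate animals. P-values of genes measure the spread between samples within groups, pooled over all 56 libraries and not the 8 alone.

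Depth, as recovered reads in Mreads (mega-reads), was 31.3 to 47.7 in the 8 libraries, against a median of 37.6 over the series. Cardiomyocyte markers defined the tissue. Myh6, Tnnt2, Tnni3, Actc1, Myl2, Myl3, Ryr2 and Pln together made up 33439 to 43875 TPM (reads per base of exon with library totals made equal) in every one of the 8 libraries. The mitochondrially encoded share of reads was 19.3% ± 2.79 (SD, n = 4) at ZT0 and 21.1% ± 1.49 at ZT4, a difference of 1.78 percentage points (two-sided exact permutation test, p = 0.286; the smallest p that 70 splits allow is 0.0286). Atrial tissue varied far more. The summed level of the 6 atrial markers was 2676, 4132, 371 and 3270 TPM in ZT0 replicates 1 to 4 and 172, 1192, 269 and 141 TPM in ZT4 replicates 1 to 4. ZT0 replicate 3 lay inside the ZT4 range and the other 3 ZT0 libraries lay above it. In bulk samples fewer cells of a type and less RNA per cell cannot be told apart. Of the lymphocyte markers 3 of 7 and of the skeletal muscle markers 3 of 8 reached a mean of 1 TPM over the series. The erythroid sum ranged from 1677 to 33239 TPM and was highest in ZT0 replicate 3 and ZT4 replicate 3.

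At the change from feeding to fasting the heart moves from mixed use of glucose and fat towards fat and ketone bodies. Insulin falls, FOXO and PPAR factors become active, and genes such as Pdk4 and Angptl4 are the usual readouts of that switch. In parallel the cardiac clock runs as a loop: BMAL1 and CLOCK drive E-box genes, among them those for the PER and CRY repressors and for REV-ERB alpha and beta (Nr1d1 and Nr1d2), and the REV-ERBs in turn repress genes that carry a RORE, such as Arntl, Cry1 and Nfil3.

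The promoters of the 4 clock genes on which the results turned are shown first, as 300 bases of RefSeq sequence on build GRCm38.p6, from 250 before the transcription start to 50 after it, read 5′ to 3′ on the gene's strand. Capitals mark the matches found by a script. In the sequence of Cry1 (chr10:85185005-85185304, minus strand), they mark a FOXO site read on the opposite strand (TGTTTAC) at -95 to -89 and an E-box (CACGTG) at -60 to -55. In that of Nfil3 (chr13:52980990-52981289, minus strand), they mark a RORE core read on the opposite strand (TAGGTCA) at -12 to -6. The sequences of Nr1d1 (chr11:98775328-98775627, minus strand) and Nr1d2 (chr14:18239057-18239356, minus strand) held none of the motifs searched, which says only that these letters are not in these windows.
Nr1d1: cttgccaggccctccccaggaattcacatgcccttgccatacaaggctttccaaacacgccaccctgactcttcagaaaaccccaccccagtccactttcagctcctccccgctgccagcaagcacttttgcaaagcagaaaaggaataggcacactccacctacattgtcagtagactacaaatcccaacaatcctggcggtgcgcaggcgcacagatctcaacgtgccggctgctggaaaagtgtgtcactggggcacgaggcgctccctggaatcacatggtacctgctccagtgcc
Nr1d2: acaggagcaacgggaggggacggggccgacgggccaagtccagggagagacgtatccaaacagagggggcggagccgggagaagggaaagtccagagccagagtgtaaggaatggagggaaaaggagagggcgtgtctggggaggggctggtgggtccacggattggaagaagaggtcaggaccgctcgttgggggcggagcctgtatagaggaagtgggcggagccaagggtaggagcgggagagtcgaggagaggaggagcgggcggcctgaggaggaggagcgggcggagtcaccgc
Cry1: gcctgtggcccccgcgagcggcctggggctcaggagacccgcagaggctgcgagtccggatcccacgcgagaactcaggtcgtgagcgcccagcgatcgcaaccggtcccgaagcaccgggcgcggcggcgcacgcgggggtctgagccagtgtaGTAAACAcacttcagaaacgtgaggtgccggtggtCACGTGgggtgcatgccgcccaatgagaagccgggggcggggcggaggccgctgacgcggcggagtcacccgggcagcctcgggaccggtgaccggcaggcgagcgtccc
Nfil3: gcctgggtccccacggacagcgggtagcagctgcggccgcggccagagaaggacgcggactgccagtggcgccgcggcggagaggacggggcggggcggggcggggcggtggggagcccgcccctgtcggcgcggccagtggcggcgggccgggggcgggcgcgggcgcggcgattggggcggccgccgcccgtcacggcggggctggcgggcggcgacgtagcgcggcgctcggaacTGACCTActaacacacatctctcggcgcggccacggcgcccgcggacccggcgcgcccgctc
Matches were counted on both strands as letters alone. An E-box stood in 7.15% of the 32851 promoters of that length and in 11.6% of the 9905 tested genes with a promoter in the table. It stood in 7 of the 22 called genes with a promoter, namely Cry1, Ppp1r3c, Pdxk, Mical2, Mapkapk3, Pfn2 and Tatdn2. A RORE core (TAGGTCA or TGGGTCA) stood in 6.45% of promoters, in 6.20% of tested genes and in 4 of the 22, Nfil3, Atg4d, Mapkapk3 and Zfp219. The FOXO site stood in 3.65% of promoters and, among the 22, in Cry1. A heat shock element stood in 0.603% of promoters and, among the 22, in that of Hcn4. These are descriptions of sequence, with no test.

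Few genes passed the test within these 4 h. Of the 13886 tested genes, which averaged 1 TPM or more across all libraries, 29 (0.209%) passed an adjusted p of 0.05, 2 of them higher at ZT4 (0.0144%) and 27 lower (0.194%). Both rises, Nr1d1 and Nr1d2, encode REV-ERB nuclear receptors, and the deepest falls among protein-coding genes were those of Nfil3, Cry1 and Ppp1r3c. The test was limma on log2(TPM + 1) with Benjamini-Hochberg adjustment over all 13886 genes, and all fold changes are on that scale. At an unadjusted p under 0.05, 316 genes (2.28%) were higher and 1537 (11.1%) lower, in all 1853 (13.3%). The 4 values of ZT4 lay wholly above those of ZT0 for 81 genes (0.583%) and wholly below for 572 (4.12%), in all 653 (4.7%). The median log2 difference of all tested genes was -0.05, with quartiles of -0.14 and 0.03. Differences over 1 were seen in 20 genes and under -1 in 44, and most of these were not called.

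**Figure D1:**
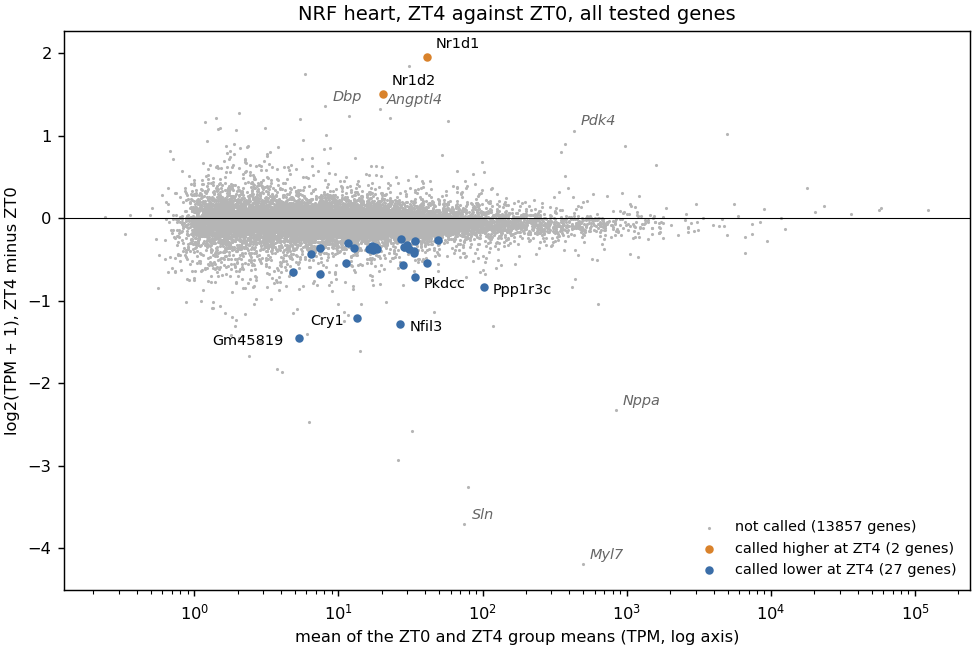
Each point is 1 of the 13886 tested genes of NRF heart, with the mean TPM of the ZT0 and ZT4 groups on a log axis and the log2(TPM + 1) difference, ZT4 minus ZT0, on the vertical axis. The 2 called rises (orange) are Nr1d1 and Nr1d2, and the 27 called falls (blue) lie below 0. Genes that differed by more than most called falls but were not called (grey, some named in italics) include the fuel genes Pdk4 and Angptl4 and the atrial genes Myl7, Sln and Nppa.

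The split between rises and falls depended on how libraries were scaled. When libraries were scaled by the median of ratios to a reference library, which centred the median gene at 0 (a shift of 0.05), 19 genes were higher and 16 lower, so that the share of falls went from 93.1% to 45.7%. Of the 29 genes 16 were still called and 13 were not, among them Kcnj5 (adjusted p = 0.0505), Gsta3 (0.0666), Arhgef19 (0.0847), Dand5 (0.0976) and Atg4d (0.101). The other 8 were Pfn2, Smg5, Gm11847, Tatdn2, Mapkapk3, Zfp651, Fam173b and Galm. With mitochondrially encoded genes left out of the TPM sum, 3 were higher and 9 lower, and with limma voom on the reads 8 were higher and 32 lower. The count of falls also rested on single libraries. It was 3 without ZT0 replicate 1, 1 without ZT0 replicate 3 and 3 without ZT4 replicate 3, but 96 without ZT0 replicate 2, 59 without ZT0 replicate 4 and 15 without ZT4 replicate 1. The count of rises was 6, 4 and 5 without ZT0 replicate 2, ZT0 replicate 4 and ZT4 replicate 1. Nr1d1, Nr1d2 and Cry1 were called in each of these fits, and in all 22 alternatives. No called gene changed direction in any of them.

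Nr1d1 (REV-ERB alpha, chromosome 11, 98767932 to 98775333, mm10) was the largest rise. Its levels were 12.6, 14.2, 15.6 and 23.2 TPM in ZT0 replicates 1 to 4 and 57.1, 75.9, 62.9 and 65.2 TPM in ZT4 replicates 1 to 4. Every ZT4 library lay far above the highest ZT0 library. The means were 16.4 ± 4.70 and 65.3 ± 7.87 TPM (SD, n = 4), 3.88-fold higher at ZT4 (log2 1.96, SE 0.27, adjusted p = 2.68e-05). At its end Nr1d1 shares 8.55% of its exon bases with Thra on the opposite strand, and the use of strand in counting is not given in the sources used here. Nr1d2 (REV-ERB beta) followed the same course. It was at 8.55, 9.40, 7.60 and 15.3 TPM at ZT0 and at 23.3, 31.1, 31.2 and 35.4 TPM at ZT4. The groups did not overlap, and the rise was 2.85-fold (log2 1.51, SE 0.19, adjusted p = 3.7e-06). In both genes ZT0 replicate 4 was the highest of the ZT0 libraries.

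Cry1, a repressor of the clock's positive arm, fell. It was at 24.3, 17.1, 21.3 and 14 TPM at ZT0 and at 9.65, 6.16, 6.96 and 7.92 TPM at ZT4, a 2.31-fold lower level without overlap (log2 -1.20, SE 0.16, adjusted p = 6.34e-06). Here ZT0 replicate 4 was the lowest of its group. Nfil3 (E4BP4), a repressor of D-box genes, stood at 43.1, 33.6, 38.5 and 38.4 TPM at ZT0 and at 20.8, 13.7, 12.4 and 14.7 TPM at ZT4. The ZT0 libraries lay close together and well above every ZT4 library, and the level was 2.43-fold lower (log2 -1.28, SE 0.25, adjusted p = 0.00959). The call on Nfil3 was lost without ZT0 replicate 1 (adjusted p = 0.0616), ZT0 replicate 3 (0.055) or ZT4 replicate 3 (0.0758).

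The other members of the clock list did not pass, although Dbp and Per2 did under some alternatives. Of its 19 genes, all measured, 2 rose and 2 fell, against 0.0144% and 0.194% of all genes, and the median log2 difference of the list was -0.17. Dbp, a D-box activator and direct output of the clock, was at 3.73, 3.15, 4.91 and 4.31 TPM at ZT0 and at 7.83, 16.8, 10.5 and 13.6 TPM at ZT4. Its groups did not overlap, but the ZT4 libraries spread over a wide range (log2 1.36, SE 0.42, adjusted p = 0.13). Dbp was called when the 8 libraries alone were fitted (0.0329) and against ZT0 and ZT24 pooled (0.0399). Dbp shares 18% of its exon bases with Sphk2 on the opposite strand. Per2, another repressor, was at 4.26, 2.26, 3.11 and 1.23 TPM at ZT0 and at 1.10, 0.646, 1.19 and 0.750 TPM at ZT4 (log2 -0.89, adjusted p = 0.0795). It lay lower in every ZT4 library than in any ZT0 library. Per2 was called with a pseudocount of 0.1 (0.0217), against ZT0 and ZT24 pooled (0.0137) and without ZT0 replicate 4 (0.0265). Arntl (BMAL1), the target that the REV-ERBs repress, was at 12.4 ± 1.58 TPM at ZT0 and 9.49 ± 0.855 TPM at ZT4 (log2 -0.35, adjusted p = 0.524), and Clock at 11.7 ± 1.06 and 11.2 ± 1.42 TPM. Per1 overlapped between the groups, with 4.96 to 17.4 TPM at ZT0 and 2.26 to 8.60 TPM at ZT4.

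**Figure D2:**
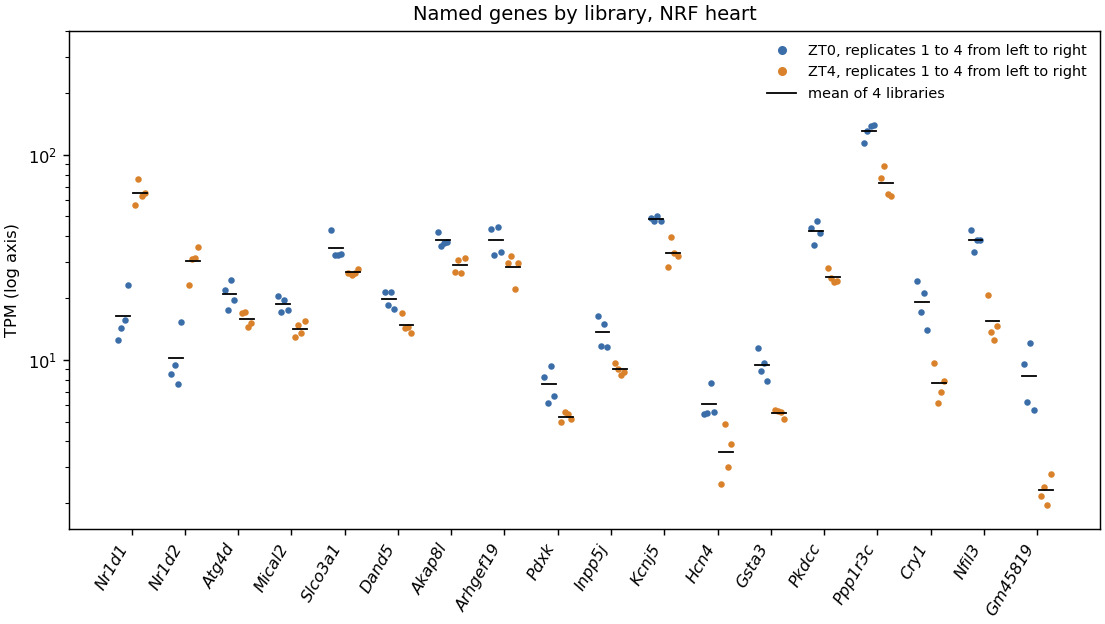
TPM of the 18 named genes on a log axis in each of the 8 NRF libraries, ordered by log2 difference, with ZT0 in blue, ZT4 in orange, replicates 1 to 4 from left to right and a bar at the mean of 4 libraries. In each gene the 4 values at one time lie wholly above the 4 at the other, and the gap is widest for Nr1d1.

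Within the NRF day the window caught these genes at different points of their course. Nr1d1 was lowest at ZT20, at 5.24 ± 0.312 TPM, and highest at ZT8, at 125 ± 49.7 TPM, so that ZT4 lay on its rising limb. Nr1d2 rose later and was highest at ZT12, at 81.2 ± 3.96 TPM. Dbp was highest at ZT12, at 146 ± 21.8 TPM, and its ZT4 mean of 12.2 ± 3.87 TPM was still low on that scale. Cry1 was highest at ZT20, at 24.9 ± 0.695 TPM, and its ZT4 and ZT8 means of 7.67 ± 1.5 and 7.93 ± 3.49 TPM were the lowest of its day. Nfil3 was highest at ZT0 and went on to 7.17 ± 0.886 TPM at ZT12. The order of these means is a description without a test.

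**Figure D3:**
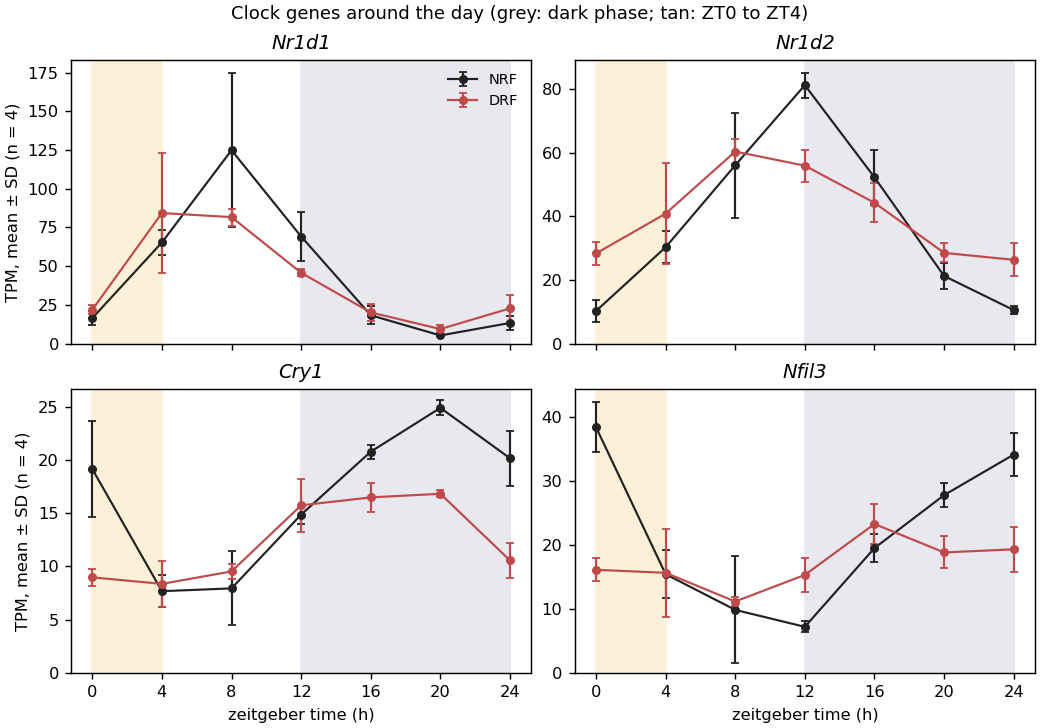
Mean TPM and SD (n = 4) of Nr1d1, Nr1d2, Cry1 and Nfil3 against zeitgeber time in hours, for NRF (black) and DRF (red), with the dark phase in grey and the 4 h window from ZT0 to ZT4 in tan. Over the window NRF Nr1d1 goes from 16.4 to 65.3 TPM and NRF Nfil3 from 38.4 to 15.4 TPM, while DRF Nfil3 is at 16.1 and 15.6 TPM.

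The next falls by size are given gene by gene. Ppp1r3c (PTG) targets protein phosphatase to glycogen and promotes glycogen synthesis. It was at 114, 130, 138 and 139 TPM at ZT0 and at 77.0, 88.6, 64.4 and 62.8 TPM at ZT4 (log2 -0.83, SE 0.17, 1.78-fold lower, adjusted p = 0.0155). Every ZT4 library lay below every ZT0 library. Pkdcc, a secreted tyrosine kinase, was at 44.0, 36.4, 47.5 and 41.3 TPM and then at 28.1, 25.1, 23.9 and 24.2 TPM (log2 -0.71, SE 0.14, adjusted p = 0.0149). Inpp5j, an inositol polyphosphate phosphatase that acts on phosphoinositides of the insulin pathway, was at 16.4, 11.6, 14.9 and 11.6 TPM and then at 9.65, 9.06, 8.46 and 8.75 TPM (log2 -0.54, SE 0.09, adjusted p = 0.00258), and it shares 7.88% of its exon bases with Pla2g3 on the opposite strand. The ZT4 libraries of both genes lay closer together than those of ZT0. Gsta3, a glutathione transferase, was at 11.4, 8.83, 9.70 and 7.92 TPM and then at 5.70, 5.63, 5.54 and 5.14 TPM (log2 -0.68, SE 0.15, adjusted p = 0.026). It was the sole called gene of the 17 tested in the antioxidant and xenobiotic list (lower calls over all genes, 0.194%). Pdxk, the kinase that makes the active form of vitamin B6, was at 8.22, 6.16, 9.28 and 6.69 TPM and then at 4.95, 5.58, 5.46 and 5.17 TPM (log2 -0.44, adjusted p = 0.0221), and it shares 39.0% of its exon bases with 4921516A02Rik on the opposite strand. These calls were lost when single libraries were left out: Ppp1r3c without ZT0 replicate 3 or ZT4 replicate 3 or 4 (highest adjusted p = 0.0849), Pkdcc without ZT0 replicate 1 or 3 or ZT4 replicate 3 (0.0904), Inpp5j without ZT0 replicate 1 or 3 (0.0616), Gsta3 without ZT0 replicate 1 or 3 or ZT4 replicate 1, 3 or 4 (0.203), and Pdxk without the same 5 (0.229).

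The smaller falls among the named genes had varied roles. Slco3a1, an organic anion transporter, was at 42.9, 32.3, 32.6 and 32.8 TPM at ZT0 and at 26.4, 25.9, 26.6 and 27.8 TPM at ZT4 (log2 -0.37, SE 0.08, adjusted p = 0.0259). ZT0 replicate 1 stood well above the other 3, and without it the adjusted p was 0.269. Arhgef19, a guanine nucleotide exchange factor, was at 43.5, 32.4, 44.2 and 33.6 TPM and then at 29.8, 32.0, 22.1 and 29.6 TPM (log2 -0.42, adjusted p = 0.0469). The highest ZT4 library lay just under the lowest ZT0 library. Akap8l, a nuclear scaffold protein, was at 41.9, 36.0, 37.2 and 37.7 TPM and then at 26.8, 30.7, 26.5 and 31.4 TPM (log2 -0.39, adjusted p = 0.026). Mical2, an actin-oxidising monooxygenase, was at 20.4, 17.1, 19.5 and 17.5 TPM and then at 13, 14.8, 13.5 and 15.5 TPM (log2 -0.37, adjusted p = 0.026). Atg4d, a protease of the autophagy conjugation system, was at 22, 17.5, 24.6 and 19.7 TPM and then at 16.9, 17.1, 14.4 and 15.2 TPM (log2 -0.37, adjusted p = 0.03). Its exons overlap those of Kri1 on the opposite strand over 19.3% of their length. Dand5, a secreted antagonist of nodal and BMP ligands, was at 21.5, 18.5, 21.4 and 17.7 TPM and then at 17, 14.3, 14.5 and 13.6 TPM (log2 -0.39, adjusted p = 0.0221). These 6 genes were called in 9 to 13 of the 22 alternatives and in 3 or 4 of the 8 fits that left out 1 library, and each lost its call without ZT0 replicate 1, without ZT0 replicate 3 and without ZT4 replicate 3 (adjusted p between 0.0606 and 0.269). The deepest fall among called genes was at Gm45819, an unclassified single locus of chromosome 7 (110119990 to 110121740, plus strand) with unknown function. It was at 9.51, 6.21, 12.1 and 5.72 TPM and then at 2.16, 2.41, 1.97 and 2.77 TPM (log2 -1.45, SE 0.26, 2.73-fold lower, adjusted p = 0.00258), and the call was lost without ZT0 replicate 3 alone (0.0576). The next annotated gene on that strand is Wee1, a cell cycle kinase.

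The 11 called genes outside the naming rule lay between log2 -0.56 and -0.25 and are given after their values were seen. They were Gm11847, Mapkapk3, Fam173b, Smg5, Galm, Zfp219, Tatdn2, Hsf1, Rabl6, Zfp651 and Pfn2. Hsf1, the main transcription factor of the heat shock response, was at 14.2, 12.3, 13.3 and 12.4 TPM at ZT0 and at 10.3, 10.5, 9.97 and 11.0 TPM at ZT4. Both groups were tight and the fall was small (log2 -0.30, SE 0.06, adjusted p = 0.0121). Hsf1 lost its call without ZT0 replicate 1 (0.122), ZT0 replicate 3 (0.0698) or ZT4 replicate 3 (0.0758). Gm11847 is a processed pseudogene and may share reads with its parent gene.

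Both called ion channel genes, Hcn4 and Kcnj5, are known to be more abundant in pacemaker and atrial tissue than in ventricle. Hcn4, the pacemaker channel, was at 5.43, 5.50, 7.74 and 5.56 TPM at ZT0 and at 2.50, 4.85, 3.00 and 3.88 TPM at ZT4 (log2 -0.65, SE 0.14, adjusted p = 0.0221). Its highest ZT0 library was replicate 3, which had the lowest atrial marker sum at ZT0, and its highest ZT4 library was replicate 2, which had the highest atrial marker sum at ZT4. Kcnj5 (GIRK4), a subunit of the potassium channel that acetylcholine opens, was at 49.0, 47.4, 50.4 and 47.4 TPM and then at 28.3, 39.5, 33.2 and 32.0 TPM (log2 -0.54, SE 0.11, adjusted p = 0.0182). The same libraries, ZT0 replicate 3 and ZT4 replicate 2, were the highest of their groups. All 6 atrial markers were lower on average at ZT4, with a median log2 difference of -2.87. None was called, 5 of the 6 had an unadjusted p under 0.05, and their groups overlapped. Myl7, the atrial regulatory light chain, was at 922, 1448, 76.4 and 1101 TPM and then at 4.09, 343, 61.9 and 8.22 TPM. With the summed atrial marker level as a covariate, Hcn4 differed by log2 -0.63 (adjusted p = 0.0431) and Kcnj5 by -0.42 (0.0769), and the calls on Gsta3 (-0.66, 0.0516), Slco3a1 (-0.33, 0.0769), Mical2 (-0.33, 0.0769) and Zfp219 (-0.31, 0.0999) were also lost at differences close to those without the covariate. Both channels were among the genes whose calls rested on single libraries, with Hcn4 at 0.203 and Kcnj5 at 0.085 without ZT0 replicate 3. Hcn4 was also lost without ZT0 replicate 1 (0.0616), ZT4 replicate 1 (0.109) or ZT4 replicate 3 (0.102), and Kcnj5 without ZT0 replicate 1 (0.0758) or ZT4 replicate 1, 3 or 4 (0.0798, 0.0758 and 0.0501). Neither is a member of the ion channel and calcium handling list of 23 tested genes, in which none was called and the median was -0.08.

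No gene of the fasting and fuel lists was called, although several differed widely between ZT4 libraries. Pdk4, the kinase that inhibits pyruvate dehydrogenase and so limits pyruvate oxidation, was at 267, 125, 177 and 272 TPM at ZT0 and at 231, 106, 1275 and 975 TPM at ZT4 (log2 1.06, SE 0.46, adjusted p = 0.289). ZT4 replicates 3 and 4 were above every ZT0 library, and ZT4 replicates 1 and 2 were not. Angptl4, a secreted inhibitor of lipoprotein lipase, showed the same libraries high, with 19.4, 3.66, 6.92 and 5.8 TPM and then 15.4, 3.72, 45.6 and 54.4 TPM (log2 1.32, SE 0.58, adjusted p = 0.298). Ucp3, a mitochondrial carrier linked to fatty acid use, was at 33.9, 28.6, 35.3 and 34.8 TPM and then at 32.2, 24.3, 104 and 127 TPM (log2 0.77, SE 0.43, adjusted p = 0.446). Cpt1a, which admits long-chain fatty acids to the mitochondrion, was at 27.0 to 34.1 TPM at ZT0 and at 30.8, 33.1, 48.3 and 57.9 TPM at ZT4 (adjusted p = 0.358). Ehhadh, a peroxisomal beta-oxidation enzyme, was at 8.73 to 9.13 TPM at ZT0 and at 10.5, 8.96, 17.9 and 16.9 TPM at ZT4 (adjusted p = 0.202). In all 5 genes ZT4 replicates 3 and 4 were the 2 highest of the 8 libraries. ZT4 replicate 3 also had the highest adipocyte marker sum of its group, 119 TPM against 21.4 to 33.9 TPM in the other 3 and 22.4 to 93.6 TPM at ZT0, and replicate 4 had the lowest of the 8. The part of adipocytes in these differences was not tested. Txnip, an inhibitor of glucose uptake, did not show that split, with 388, 214, 206 and 215 TPM at ZT0 and 466, 267, 604 and 457 TPM at ZT4 (log2 0.80, adjusted p = 0.217).

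**Figure D4:**
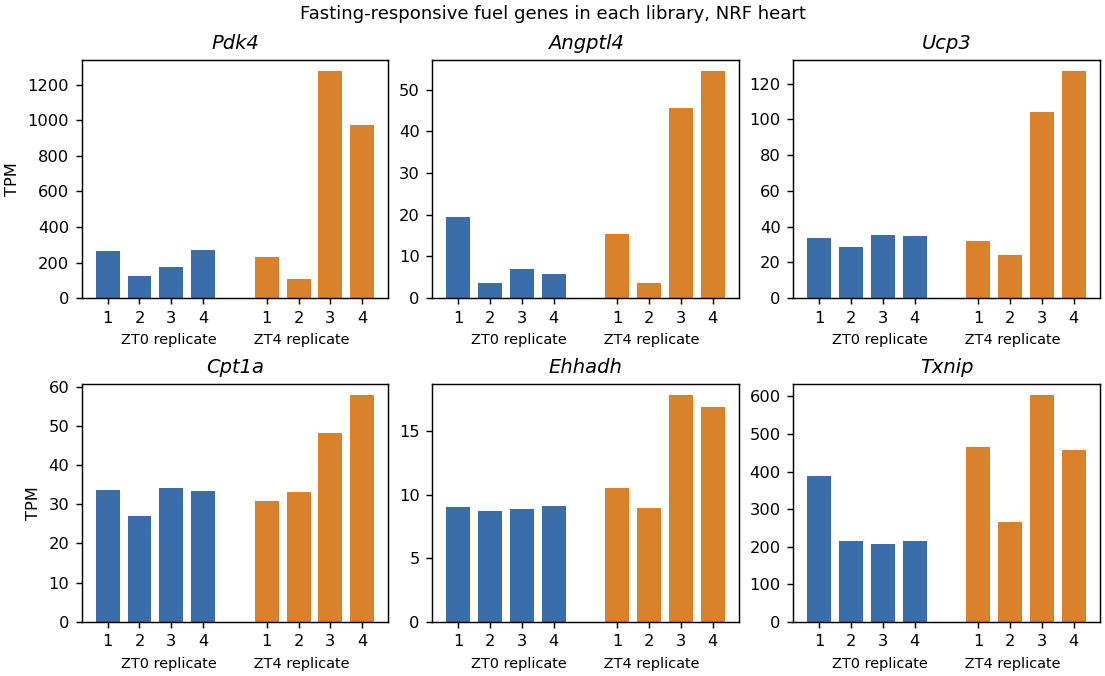
TPM of Pdk4, Angptl4, Ucp3, Cpt1a, Ehhadh and Txnip in each NRF library, with 1 bar per replicate, ZT0 in blue and ZT4 in orange. For all but Txnip, ZT4 replicates 1 and 2 lie near the ZT0 libraries and replicates 3 and 4 lie above them, as in Pdk4 with 231 and 106 against 1275 and 975 TPM.

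The fuel lists were counted against the 2.28% of all genes that were higher and the 11.1% that were lower at an unadjusted p under 0.05. Of all genes 0.209% were called, so a list of this size without a call is near that share. Of 25 tested genes of fatty acid oxidation, none was called, 2 were higher at an unadjusted p under 0.05, and the median log2 difference was -0.00. Of 22 genes of fatty acid uptake, lipolysis and lipid droplets, none was called (median 0.04), and the same held for 25 of glucose use and the pyruvate dehydrogenase switch (-0.06), 18 of ketone body and amino acid catabolism (0.01) and 22 responsive to insulin and FOXO (0.04). At an unadjusted p under 0.05, 2 were higher and 3 lower among the uptake and lipolysis genes, 4 and 4 among those of glucose use, 1 and 0 among those of ketone body and amino acid catabolism and 3 and 2 among the insulin and FOXO genes. In the insulin and FOXO list, Cited2, a transcriptional co-regulator, was at 25.9 to 32.6 TPM at ZT0 and at 37.0 to 45.5 TPM at ZT4 without overlap (log2 0.51, adjusted p = 0.133; 0.0137 against ZT0 and ZT24 pooled). Irs2, the insulin receptor substrate, was at 5.59, 5.58, 6.38 and 19.4 TPM and then at 3.46, 4.08, 4.59 and 5.27 TPM, with ZT0 replicate 4 far above the rest (log2 -0.76, adjusted p = 0.184). Arrdc4, a paralog of Txnip, was at 9.76 to 14 TPM and then at 14.8 to 17.1 TPM (log2 0.45, adjusted p = 0.0781), and it was called under median-of-ratios scaling (0.0415), with the deposited values (0.0398), with voom (0.0443) and against ZT0 and ZT24 pooled (0.0135). G0s2, an inhibitor of the lipase that starts lipid droplet breakdown, was at 108 to 213 TPM and then at 91.3 to 99.5 TPM (log2 -0.61, adjusted p = 0.29). Lipe, hormone-sensitive lipase, was at 16.5 to 21.7 TPM and then at 19.9 to 29.6 TPM.

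Protein-folding genes were lower on average at ZT4 without passing the test. Of 19 tested heat shock and cold-inducible genes none was called, and Hsf1, which was called, is not a member of that list. At an unadjusted p under 0.05, 12 were lower (all genes 11.1%) and 2 higher (2.28%), and 8 lay wholly below their ZT0 range (4.12%; median log2 difference -0.32, against -0.05 for all genes). Hspa8 (HSC70), the constitutive cytosolic chaperone, was at 792, 539, 770 and 604 TPM at ZT0 and at 518, 395, 503 and 480 TPM at ZT4 (log2 -0.50, adjusted p = 0.147). Hsph1, its exchange factor, was at 19.1 to 27.7 TPM and then at 13.1 to 16.1 TPM (log2 -0.64, adjusted p = 0.105; 0.0425 against ZT0 and ZT24 pooled). The 2 members with higher values were Cirbp and Rbm3, RNA-binding proteins induced by mild cold. Rbm3 was at 18.8, 23.2, 17.3 and 21.7 TPM and then at 21.9, 37.4, 20.8 and 39.8 TPM (adjusted p = 0.16), and Cirbp at 25.2, 36.9, 29.4 and 35.2 TPM and then at 31.4, 62.0, 34.0 and 52.3 TPM (adjusted p = 0.254; 0.0217 against ZT0 and ZT24 pooled). In both, ZT4 replicates 2 and 4 were the highest. Of 20 chaperones and sensors of the endoplasmic reticulum (ER) none was called and 12 were lower at an unadjusted p under 0.05, against the same 11.1% of all genes (median -0.27). Hspa5 (BiP), the master ER chaperone, was at 437, 254, 332 and 303 TPM and then at 271, 188, 317 and 269 TPM (log2 -0.34, adjusted p = 0.318). Xbp1, a transcription factor of the unfolded protein response, was at 66.5 to 96.0 TPM and then at 52.1 to 65.9 TPM without overlap (log2 -0.38, adjusted p = 0.141). Ddit3 (CHOP), a stress-induced factor, was at 25.5, 23.0, 21.2 and 17.7 TPM and then at 17.4, 13.5, 13.4 and 12.8 TPM (log2 -0.58, adjusted p = 0.0775; 0.0414 without ZT0 replicate 4 and 0.0189 against ZT0 and ZT24 pooled).

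No call fell among the contractile and energy genes. None of 20 sarcomere genes (median log2 difference -0.08), 83 nuclear respiratory chain subunits (-0.06), 84 cytosolic ribosomal proteins (-0.13), 77 mitochondrial ribosomal proteins (-0.08), 13 mitochondrially encoded genes (0.10), 31 proteasome subunits (-0.03), 29 autophagy and lysosome genes (-0.05) or 27 collagens (0.07) was called. Atg4d, which was called, is not a member of the autophagy list. The same held for 26 genes of lipid synthesis (-0.17), 20 mTORC1 inhibitors and amino acid response genes (-0.08), 24 immediate early genes (-0.21), 14 glucocorticoid-responsive genes (-0.07), 19 of adrenergic signalling (-0.06), 20 aminoacyl-tRNA synthetases (-0.04), 18 growth factors (-0.09), 52 translation initiation factors (-0.04), 30 splicing factors (-0.01) and 38 mitochondrial carriers (-0.03). Of all genes 0.209% were called, so lists of this size without a call are near that share. The median of all genes was -0.05, and a missing call does not show that a gene was unchanged.

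Genes of cell division were higher on average and rested mainly on 1 library. Of 18 tested, none was called, and 13 were higher at an unadjusted p under 0.05, against 2.28% of all genes (median log2 difference 0.61). Mki67, the nuclear marker of cycling cells, was at 3.17, 1.82, 2.04 and 1.5 TPM at ZT0 and at 2.23, 3.48, 4.16 and 12.1 TPM at ZT4. Top2a, topoisomerase II alpha, was at 2.63, 1.69, 1.96 and 1.16 TPM and then at 1.63, 3.51, 2.85 and 10.1 TPM. In both, ZT4 replicate 4 stood far above every other library. The summed level of the proliferation list was 232 TPM in that library, against 75.7 to 126 TPM in the other 7. ZT4 replicate 4 also had the lowest median correlation with the other 7 libraries over all genes, 0.981 against 0.985 to 0.987.

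To set the change against clock hour with food reversed, it was compared with DRF over the same hours, when DRF mice had begun to eat. The change from ZT0 to ZT4 differed between regimens for 643 genes (4.63%), with 140 more positive under NRF (1.01%) and 503 more negative (3.62%). With median-of-ratios scaling the split was 425 and 578, and without mitochondrially encoded genes 198 and 337. The values of the clock genes come first. Nr1d1 was at 18.1, 23.0, 21.2 and 25.2 TPM in DRF ZT0 and at 140, 82.7, 59.1 and 55.5 TPM in DRF ZT4, and its change did not pass as different from that of NRF (difference 0.15 in log2, SE 0.39, adjusted p = 0.903, which leaves room for differences of either sign). DRF Nr1d2 was at 27.1, 33.4, 27.1 and 25.6 TPM at ZT0, above every NRF ZT0 library, and at 64.5, 35.0, 34.7 and 29.3 TPM at ZT4, so that its change was smaller than in NRF (difference 1.06, SE 0.27, adjusted p = 0.0127). DRF Cry1 was already at 9.73, 8.56, 9.55 and 8.05 TPM at ZT0 and stayed at 5.16, 8.68, 9.80 and 9.81 TPM (difference -1.08, SE 0.22, adjusted p = 0.00243). DRF ZT4 replicate 1 stood apart from the other 3 of its group in all 3 genes. Without it the differences were 0.42 for Nr1d1 (adjusted p = 0.574), 1.29 for Nr1d2 (0.000562) and -1.27 for Cry1 (7.86e-05), and 1024 genes differed in all. The count was 317 without DRF ZT4 replicate 3, 331 without NRF ZT0 replicate 3, 368 without DRF ZT0 replicate 1, 406 without NRF ZT0 replicate 1 and 424 without DRF ZT4 replicate 4. Nfil3 differed by -1.12 (adjusted p = 0.0493), a call that 13 of the 16 fits without 1 library lost, with the highest adjusted p, 0.142, without DRF ZT4 replicate 4. It was also lost with median-of-ratios scaling (0.0635), a pseudocount of 0.1 (0.0629), no filter on low values (0.0756) and the deposited values (0.0804).

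Among the named falls, Pkdcc was at 23.4, 26.6, 28 and 24.9 TPM in DRF ZT0 and at 28.2, 44.9, 47.7 and 49.2 TPM in DRF ZT4, the opposite course to NRF (difference -1.39, SE 0.20, adjusted p = 0.000114). Inpp5j (-0.95, adjusted p = 9.22e-05), Gm45819 (-2.09, 0.000351), Ppp1r3c (-1.05, 0.00577), Kcnj5 (-0.81, 0.00149), Hcn4 (-0.81, 0.00886), Arhgef19 (-0.72, 0.00149), Pdxk (-0.64, 0.00246), Mical2 (-0.58, 0.00159), Atg4d (-0.51, 0.00632), Akap8l (-0.47, 0.017) and Hsf1 (-0.49, 0.000302) also differed. Akap8l lost this call without NRF ZT0 replicate 1 (0.0535) or DRF ZT0 replicate 4 (0.0523), and the others kept it in every fit without 1 library. Gsta3 (-0.22, 0.666), Dand5 (-0.35, 0.0724) and Slco3a1 (-0.23, 0.297) did not pass, and Dand5 passed without NRF ZT0 replicate 4 (0.0405), NRF ZT4 replicate 1 (0.034), DRF ZT0 replicate 3 (0.0458) or DRF ZT4 replicate 1 (0.0266). The called genes were picked by the NRF change that each comparison with DRF contains, which favours a difference in the direction of that change. The DRF change from ZT0 to ZT4 taken alone passed for Pkdcc (limma, adjusted p = 0.00576) and Inpp5j (0.0106). It did not pass for the other genes of this paragraph.

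The ER chaperones were the list with the most members differing between regimens at the same hours, at which food and the level of clock genes such as Cry1 both differed. Of 20, 15 moved more negatively in NRF than in DRF, against 3.62% of all genes, with a median difference of -0.86 against -0.04 for all genes, and the count was 14 to 16 in every alternative. The median of the list was -0.27 over the NRF window, 0.58 over the DRF window and -0.04 over DRF ZT12 to ZT16. Against that last window, with the same food state, 1 of 20 was more negative in NRF (all genes 0.821%), with a median difference of -0.24. Hspa5 was at 155 to 188 TPM in DRF ZT0 and at 232, 330, 296 and 401 TPM in DRF ZT4 (difference -1.23, SE 0.22, adjusted p = 0.00047). Sdf2l1, a cofactor of BiP, differed by -2.12 (adjusted p = 0.000302), and Manf, a secreted ER stress protein, by -1.80 (0.000302). Xbp1 differed by -0.93 (0.00101) and Ddit3 by -1.15 (0.000994). Of the 19 heat shock and cold-inducible genes 8 differed in the negative direction (all genes 3.62%) and 2, Cirbp (0.99, adjusted p = 0.0169) and Rbm3 (0.99, 0.00782), in the positive. The negative count ranged from 4 without NRF ZT0 replicate 1 to 11 without NRF ZT0 replicate 2. Hsph1 differed by -1.16 (0.00594) and Hspa8 by -0.81 (0.0306). Hspa8 lost this call without 7 of the 16 libraries, at most at 0.0974 without DRF ZT4 replicate 4, and Cirbp without 4, at most at 0.0574 without the same library, while the ER genes named, Hsph1 and Rbm3 kept theirs.

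Some fuel genes differed between regimens. The change was more positive in NRF for 3 of 25 fatty acid oxidation genes, 3 of 22 of fatty acid uptake and lipolysis, 2 of 25 of glucose use, 2 of 18 of ketone body and amino acid catabolism and 2 of 22 responsive to insulin and FOXO, against 1.01% of all genes. It was more negative for 1 of these, Hk1, a hexokinase named after its value was seen (-0.62, adjusted p = 0.00149), against 3.62% of all genes. The list medians were 0.06, 0.16, 0.01, 0.03 and 0.29. DRF Pdk4 was at 906, 391, 422 and 808 TPM at ZT0 and at 570, 256, 172 and 202 TPM at ZT4, and the NRF change exceeded it by 2.2 in log2 (SE 0.65, adjusted p = 0.0377). DRF Angptl4 was at 33.9, 7.96, 10.3 and 25.3 TPM and then at 14.2, 3.05, 2.60 and 1.29 TPM (difference 3.20, SE 0.82, adjusted p = 0.0149). DRF Ucp3 was at 90.5, 44.4, 52.7 and 72.7 TPM and then at 99.4, 18.2, 14.4 and 8.59 TPM (difference 2.23, SE 0.61, adjusted p = 0.0243). In all 3 genes the mean DRF level at ZT0, before food, was above that of NRF ZT0. Ehhadh differed by 1.18 (adjusted p = 0.0039), Cpt1a by 0.93 (0.0188), Lipe by 0.89 (0.0148) and Txnip by 1.41 (0.0447). Of these, Ehhadh alone kept its call in every fit without 1 library. Pdk4 lost its call without NRF ZT4 replicate 3 (0.136) and 8 other libraries, Angptl4 without DRF ZT0 replicate 1 (0.0518), Ucp3 and Cpt1a without DRF ZT4 replicate 4 (0.0878 and 0.069) and 4 others, Lipe without DRF ZT4 replicate 3 or 4 (0.0577 and 0.0523), and Txnip without DRF ZT4 replicate 4 (0.124) and 11 others.

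**Figure D5:**
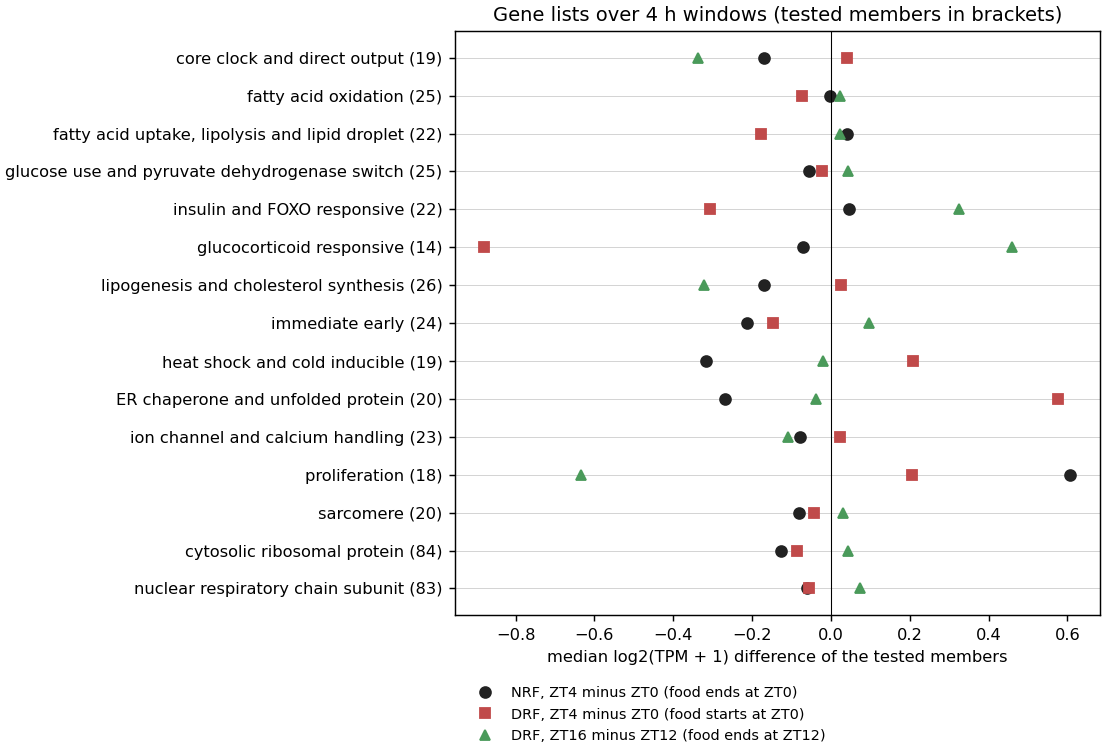
Median log2(TPM + 1) difference of the tested members of 15 gene lists (number of tested members in brackets) over 4 h windows, for NRF ZT4 minus ZT0 (black circles), DRF ZT4 minus ZT0 (red squares) and DRF ZT16 minus ZT12 (green triangles). The ER chaperones lie at -0.27 in NRF and 0.58 in DRF over the same hours, glucocorticoid-responsive genes at -0.07 and -0.88, and proliferation genes at 0.61 in NRF against -0.63 over the first 4 h of fasting in DRF.

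To set the change against the same food state at the opposite clock hour, it was compared with DRF from ZT12, when food ended, to ZT16. This change differed for 309 genes (2.23%), with 195 more positive in NRF (1.4%) and 114 more negative (0.821%). With median-of-ratios scaling the split was 445 and 377, and without mitochondrially encoded genes 581 and 103. More genes were negative than positive without NRF ZT4 replicate 4 (30 positive and 51 negative), NRF ZT0 replicate 4 (77 and 87), DRF ZT12 replicate 4 (78 and 102) or DRF ZT16 replicate 4 (84 and 121). Clock genes were among them. DRF Nr1d1 went from 48.6, 46.2, 43.4 and 44.7 TPM at ZT12 to 28.5, 15.5, 18.5 and 17.8 TPM at ZT16, against the rise in NRF (difference 3.14, SE 0.39, adjusted p = 3.08e-06). Dbp differed by 2.88 (SE 0.60, adjusted p = 0.00766), Nr1d2 by 1.85 (SE 0.27, 5.09e-05), Nfil3 by -1.86 (SE 0.35, 0.003) and Cry1 by -1.28 (SE 0.22, 0.00121). These 5 calls held in every fit without 1 library.

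Ppp1r3c (-1.0, adjusted p = 0.0203), Gsta3 (-1.0, 0.00849), Slco3a1 (-0.75, 0.000202), Inpp5j (-0.69, 0.0057), Dand5 (-0.43, 0.0379) and Gm45819 (-1.36, 0.035) were lower in the NRF change than in the DRF one. In each of Ppp1r3c, Gsta3, Slco3a1, Inpp5j and Dand5 the DRF mean difference was positive, at 0.17, 0.33, 0.37, 0.15 and 0.04. Taken alone it passed for Slco3a1 (limma, adjusted p = 0.00634) and not for the others (0.174 for Gsta3 to 0.795 for Dand5). Gsta3, Slco3a1 and Inpp5j kept the call on the difference of changes in every fit without 1 library. Ppp1r3c lost it without NRF ZT4 replicate 4 (0.0585) or DRF ZT12 replicate 2 (0.061), and Dand5 and Gm45819 lost it in 9 fits each, at most at 0.108 without NRF ZT4 replicate 4 and at 0.0809 without NRF ZT0 replicate 3. Irs2 differed by -1.56 (0.022; 0.0671 without NRF ZT0 replicate 4), Arrdc4 by 0.70 (0.0218; 0.0585 without NRF ZT4 replicate 4 and 0.0576 without DRF ZT12 replicate 2) and Rbm3 by 1.16 (0.0057). No gene of the fatty acid oxidation list differed in this comparison, against 2.23% of all genes. DRF Pdk4 was at 124, 171, 159 and 111 TPM at ZT12 and at 201, 291, 160 and 228 TPM at ZT16, and the difference of the changes was 0.43 (SE 0.65, adjusted p = 0.808), an estimate too loose to show that they were alike.

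Of the 18 proliferation genes 11 were more positive in the NRF change, against 1.4% of all genes, with Mki67 at 1.76 (adjusted p = 0.0372) and Top2a at 1.79 (0.0336). Mki67 lost its call in 9 of the 16 fits without 1 library and Top2a in 7, and Mki67 also with a pseudocount of 0.1 (0.0521), no filter on low values (0.0507), voom (0.0518) and the atrial covariate (0.0507). The count was 0 without NRF ZT4 replicate 4 and 1 without each of NRF ZT0 replicate 4, DRF ZT12 replicate 2 and DRF ZT12 replicate 4. Without NRF ZT4 replicate 4 the adjusted p was 0.14 for Mki67 and 0.123 for Top2a. DRF ZT12 replicate 4 had the second highest Mki67 value of the libraries compared, at 8.55 TPM. Without NRF ZT4 replicate 4 the whole count of genes that differed was 81, without DRF ZT12 replicate 2 it was 96, and without NRF ZT4 replicate 1 it was 536. It was 148 to 205 without any one of NRF ZT0 replicates 1, 3 and 4, NRF ZT4 replicate 2, DRF ZT12 replicate 4 and DRF ZT16 replicates 2, 3 and 4.

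The end of the next night was sampled at ZT24, 24 h after ZT0. Nr1d1 was at 12.4, 8.34, 12.8 and 19.7 TPM in NRF ZT24, Cry1 at 20.8, 23.6, 17.9 and 18.4 TPM and Nfil3 at 37.1, 36.7, 31.3 and 31.2 TPM, all outside the ZT4 range. Against ZT24, which shares the ZT4 libraries with the comparison against ZT0, the ZT4 level differed by log2 2.26 for Nr1d1, -1.30 for Cry1, -1.12 for Nfil3, -0.71 for Pkdcc and -0.67 for Ppp1r3c. For Kcnj5 it differed by -0.24 (adjusted p = 0.293), with 38.2, 42.4, 35.0 and 42.2 TPM at ZT24, and for Hsf1 by -0.18 (0.11). The shared ZT4 libraries favour passing, so the counts that follow are no separate test of the calls. Of the 29 called genes 17 passed against ZT24 and 12 did not. Besides Kcnj5 and Hsf1 these were Arhgef19, Dand5, Mical2, Akap8l, Slco3a1, Pfn2, Zfp651, Zfp219, Smg5 and Gm11847, with Slco3a1 at an adjusted p of 0.0936 and Zfp651 at 0.249. Between ZT0 and ZT24 themselves, 8 genes differed (0.0576%). With ZT0 and ZT24 pooled as the fed state, 43 genes were higher (0.31%) and 162 lower (1.17%) at ZT4. That baseline holds the ZT0 libraries by which the 29 genes were called.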

How the data were processed

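PolyA RNA of 56 mouse heart libraries was sequenced by the authors as 150 bp read pairs. Per the labels, the submitters' processing notes name HISAT2 2.0.5, featureCounts 1.5.0-p3 and build mm10, and the annotation and use of strand are not given in the sources used here. The values deposited by the authors carry the name TPM but are no linear unit: in each library they are a constant times log2(1 + scaled reads), divided by exon length. They were therefore treated as a score. Whole reads were recovered from their steps (GENCODE vM21 exon lengths for 96.0% of 22864 genes, lengths searched for 831; 99.9996% of 1192402 judged values came out whole within 0.1 read), and linear TPM was recomputed. For 72 genes the reads were too abundant for that judgement. One gene, Fth1, was left unresolved and not used. All 56 columns were matched to samples, and no pair of libraries held identical values.

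The 13886 genes that averaged 1 TPM or more were tested on log2(TPM + 1) with limma 3.58.1 in R 4.3.3 (14 group means, trended empirical Bayes, Benjamini-Hochberg adjusted p under 0.05). The procedure was tested on simulated data. Lists were described by counts and medians. Named genes were called genes without overlap and with a classified symbol, up to 15 rises and 15 falls, up to 6 called in each comparison between regimens and up to 8 called per list, with defining uncalled members as values. The members and lists were chosen with earlier results of these data known. Same-numbered replicates were not treated as pairs. Alternatives covered scaling, pseudocount, filter, values as deposited, limma voom, replicate block, libraries in the fit, baseline and single libraries left out. An atrial covariate and TPM without mitochondrially encoded genes were added after seeing the data. Results on some items are not reported here.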

Additional observations from a re-analysis of the deposited data

Results flagged for a closer look

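Far samples arise by chance in about 1 in 20 groups of independent normal values. The groups here overlapped, as the atrial marker sum holds Myl7, Nppa and Bmp10, so that rate is no test of an excess. Of 138 groups of 4 values tested for a far sample, 12 held one. At ZT0 these were replicate 3 for Hcn4 (7.74 TPM), replicate 1 for Slco3a1 (42.9 TPM), Arntl (14.7 TPM) and Txnip (388 TPM), replicate 2 for Cpt1a (27.0 TPM) and replicate 4 for Irs2 (19.4 TPM). At ZT4 they were replicate 1 for Ddit3 (17.4 TPM), replicate 2 for Myl7 (343 TPM), Nppa (714 TPM) and the atrial marker sum (1192 TPM), and replicate 3 for Bmp10 (0.159 TPM) and the adipocyte marker sum (119 TPM).

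The change from ZT0 to ZT4 differed between NRF and DRF, by limma's test of the difference, for 643 genes. Among the genes of the text it was more positive in NRF, in log2, for Angptl4 (3.20), Ucp3 (2.23), Pdk4 (2.2), Txnip (1.41), Ehhadh (1.18), Nr1d2 (1.06), Cirbp (0.99), Rbm3 (0.99), Cpt1a (0.93) and Lipe (0.89). It was more negative for Sdf2l1 (-2.12), Gm45819 (-2.09), Manf (-1.80), Pkdcc (-1.39), Hspa5 (-1.23), Hsph1 (-1.16), Ddit3 (-1.15), Nfil3 (-1.12), Cry1 (-1.08), Ppp1r3c (-1.05), Inpp5j (-0.95), Xbp1 (-0.93), Bhlhe41 (-0.83), Hcn4 (-0.81), Kcnj5 (-0.81), Hspa8 (-0.81), Arhgef19 (-0.72), Hlf (-0.68), Pdxk (-0.64), Mical2 (-0.58), Atg4d (-0.51), Hsf1 (-0.49) and Akap8l (-0.47).

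The change over the first 4 h of fasting differed between NRF (ZT0 to ZT4) and DRF (ZT12 to ZT16) for 309 genes. It was more positive in NRF for Nr1d1 (3.14), Dbp (2.88), Nr1d2 (1.85), Top2a (1.79), Mki67 (1.76), Rbm3 (1.16) and Arrdc4 (0.70). It was more negative for Nfil3 (-1.86), Irs2 (-1.56), Gm45819 (-1.36), Cry1 (-1.28), Ppp1r3c (-1.0), Gsta3 (-1.0), Hspa8 (-0.81), Slco3a1 (-0.75), Inpp5j (-0.69) and Dand5 (-0.43). Hspa8 lost this call without 11 of the 16 libraries, at most at an adjusted p of 0.11 without DRF ZT16 replicate 2. The difference of Hlf at the same hours was lost without 11 of 16, at most at 0.132 without NRF ZT0 replicate 3.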

How the results depend on the processing

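The 2 higher and 27 lower genes became 19 and 16 with median-of-ratios scaling, 12 and 4 with the deposited values, 8 and 32 with voom, 3 and 10 with the 8 libraries alone, 2 and 17 with the 28 NRF libraries, 43 and 162 against ZT0 and ZT24 pooled, 3 and 50 with the atrial covariate and 3 and 9 without mitochondrially encoded genes. Leaving out 1 library gave 2 to 6 higher and 1 to 96 lower. The 643 genes differing between regimens at the same hours became 1003 with median-of-ratios scaling and 317 to 1024 without 1 library. The 309 differing over the first 4 h of fasting became 822 with that scaling, 494 with the deposited values, 680 with voom, 684 without mitochondrially encoded genes and 81 to 536 without 1 library. The cause was not tested, beyond the smaller number of libraries in some fits. The difference in mitochondrially encoded share was 0.846 to 2.67 percentage points without 1 library. Of the values for single genes and lists, 6064 stayed on their side of the threshold or, for list medians and counts of calls, near their first value. Of the rest, 381 values of genes were no longer past the threshold, 55 passed it and 45 list values moved. No single-gene value changed sign where it was called in either fit. List medians near 0 did change sign, as for proteasome subunits, at -0.03 and, with median-of-ratios scaling, at 0.03. Reads per library limit what can be seen of low genes.

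With the replicate number as a block over all libraries, 2 genes were higher and 25 lower, and 637 and 303 genes differed between regimens. With the block and the 8 libraries alone, 5 were higher and 31 lower, but 8 of the 29 called genes were kept and 21 lost, among them Inpp5j, Hcn4, Kcnj5, Pdxk and Hsf1. Without the block these 8 libraries kept 7. With the block and the 8 libraries alone, Dbp was at an adjusted p of 0.00502 and the atrial marker Nppa at 0.0223 (log2 -2.32). With the block over all libraries, the difference of Nfil3 between regimens at the same hours was at 0.0579. That fit also lost the calls between ZT4 and ZT0 of Arhgef19 (adjusted p = 0.056), Zfp219 (0.056) and Zfp651 (0.0533). Deviations of same-numbered ZT0 and ZT4 libraries correlated between -0.009 and 0.154, with 1 of 4 over 0.1. Of the 4 ZT4 replicates, 2 correlated best with their own number. Values from 4 libraries per group cannot settle whether the numbers pair the samples.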
